A study of Mus musculus with 4 samples.

Results

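Immediate early genes were followed in liver immune cells of mice on the FPC diet, a diet rich in fructose, palmitate, cholesterol and trans-fat that induces steatohepatitis. The set held 10 genes, chosen by their symbols from the 33696 gene rows of the count matrices: Fos, Fosb, Jun, Junb, Jund, Egr1, Nr4a1, Ier2, Dusp1 and Atf3. All 10 were detected. Male C57BL/6J mice, 7 weeks old at the start, received the FPC diet for 24 weeks with a cholesterol content of 0.05% (low) or 1.25% (high), and the 3 aspirated mice of each group were then kept on its 0.05% form for 8 further weeks. No group received a chow diet. P-LC24 and P-HC24 are the low and high cholesterol groups at week 24 (Progression phase). I-LC32 (low cholesterol throughout) and I-HC32 (high cholesterol until week 24, low afterwards) are the groups at week 32 (Intervention phase), and the mice aspirated at week 24 were carried on to this phase. In each condition, 12 fine needle aspiration (FNA) biopsies, 4 from each of 3 mice, were pooled into 1 library, so the mice of a pool cannot be separated. Diet, mice and handling of a library cannot be told apart, no p-value could be given, and every interval in this text (95%, exact) covers counting error only. Where 4 values are listed for a gene or class, they stand in the order P-LC24, then P-HC24, then I-LC32, then I-HC32.

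Immediate early genes are transcribed within minutes of a stimulus from factors that the cell already holds, chiefly serum response factor with its ternary complex partners and the cyclic AMP response element (CRE) binding proteins, which mitogen-activated protein kinases phosphorylate. Fos and Jun family proteins pair through leucine zippers to form AP-1, Egr1 and Nr4a1 encode a zinc finger factor and an orphan nuclear receptor, and Dusp1 encodes the phosphatase that switches the same kinases off. Receptor engagement, stress and the preparation of single cells are all known to induce them. Here the biopsies were kept on ice, digested with collagenase for 15 minutes at 37 °C, and freed of red and dead cells. The cells were loaded on the 10x 3′ v3.1 kit, and all 4 conditions shared this protocol. Its outcome differed, as the paper lists unequal numbers of recovered cells and lower viability in both groups of the Intervention phase. These viability values lie below the minimum that the paper's methods state for all samples. The mice of that phase had also been aspirated before. The part of these differences in the results was not tested.

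The promoters are shown to look for response elements of the factors named above. Sequences are from the GRCm39 genome with GENCODE starts, and span 250 bases that end 1 base before the annotated start. Fos, the partner that gives AP-1 its strongest DNA binding, starts at position 85520658 of chromosome 12 on the plus strand, and its window is chr12:85520408-85520657. Ier2, a small nuclear protein, starts at position 85389483 of chromosome 8 on the minus strand, and its window is chr8:85389484-85389733. Capitals mark the CRE core TGACG (Fos), the full CRE TGACGTCA (Ier2) and the TATA box TATAAA (Fos).

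Fos: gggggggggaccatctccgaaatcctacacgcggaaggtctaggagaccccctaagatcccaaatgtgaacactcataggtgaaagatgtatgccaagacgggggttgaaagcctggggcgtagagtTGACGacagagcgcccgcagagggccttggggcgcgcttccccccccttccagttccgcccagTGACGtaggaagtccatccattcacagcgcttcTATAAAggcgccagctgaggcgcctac

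Ier2: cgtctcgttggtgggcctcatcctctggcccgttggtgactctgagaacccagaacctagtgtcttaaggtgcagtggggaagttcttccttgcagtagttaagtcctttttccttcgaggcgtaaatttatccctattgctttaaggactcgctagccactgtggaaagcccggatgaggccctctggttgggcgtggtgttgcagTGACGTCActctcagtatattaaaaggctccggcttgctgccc

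In Fos the CRE cores began 123 and 60 bases before the start and the TATA box 27 bases before it, and in Ier2 the full CRE began 43 bases before the start. The full CRE was also present in Jund, 214 bases before the start, and in Dusp1, 96 bases before it. Thus 3 of the 10 members held a full CRE, against 1.69% of 21418 protein-coding promoters, and 8 of 10 held the core TGACG, which every full CRE contains, against 18.0%. Both strands were searched. TATAAA was found in 3 members (Fos, Junb and Nr4a1) against 11.9% of promoters, and the GC box GGGCGG in 8 against 36.4%. The TATAAA match of Nr4a1 lay on the opposite strand and began 195 bases before the start, far from the place of the Fos TATA box. The AP-1 site TGACTCA (4.02% of promoters) and the CArG box that binds serum response factor (1.41%) were found in none of the 10 windows. A match is a description of letters and not of occupancy, and sites farther upstream lie outside these windows.

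Cells were gated on raw marker UMIs (unique molecular identifiers, 1 per captured transcript), with cells of clearly mixed markers left out. Between 88.4% and 91.9% of the cells that passed quality limits fell into 5 classes: B, T, NK, monocyte and macrophage. Macrophages numbered 64, 515, 102 and 732, and NK cells 244, 93, 145 and 53. Cells of the other classes numbered between 103 (monocytes of I-HC32) and 4915 (B cells of I-LC32). An independent check marker counted as detected where a set minimum share of the cells of its class had a UMI. All 5 were detected in B, T and NK cells and monocytes, but only 2 of 5 (Cd5l and Mertk) in macrophages. There Cd163, Marco and Mrc1 fell below that share, which does not mean that they were absent. Hepatocyte markers summed to at most 13.4 CPM, the usual scaling of UMIs to the total of the class in that library. Gata6, the defining factor of large peritoneal macrophages, had a UMI in 53.1% to 77.9% of the macrophages. The Kupffer cell gene Clec4f had a UMI in at most 3.12%. A Kupffer cell list of Clec4f, Cd5l, Vsig4, Timd4 and Clec1b summed to 716, 922, 970 and 1264 CPM in macrophages. Of these, Vsig4 and Timd4 were also gate markers. A peritoneal list of Gata6, Prg4, Alox15, Ltbp1 and Icam2 summed to 6379, 6649, 6035 and 8537 CPM. Clec4f was thus rare in the gated macrophages, while the Kupffer list as a whole was not absent. Libraries also differed in markers of other cells: haemoglobin and Alas2 UMIs summed to 17475, 10574, 16296 and 3676 CPM in B cells, and to 11930, 7702, 17885 and 180 CPM in T cells. In NK cells the sums were 13109, 723, 18864 and 184 CPM, in monocytes 16099, 9219, 14121 and 86.9 CPM and in macrophages 6611, 3434, 3975 and 776 CPM. Neutrophil markers summed to 109, 362, 1025 and 61.1 CPM in monocytes and to 298, 67.3, 8.86 and 5.37 CPM in T cells. The part of these differences in the results below was not tested. Between 6 and 14 gated barcodes were shared by each pair of libraries. All values below are UMIs of a gene summed over the cells of a class, as CPM. They cannot separate more transcripts of a gene from fewer of all others, and single cells enter by their depth.

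The members differed in the classes that held most of their UMIs per class total. Fos in macrophages was 1683, 1398, 2167 and 2986 CPM. In monocytes it was 1267, 602, 1671 and 1118 CPM, and in B cells 371, 205, 485 and 363 CPM. T cells had 227, 210, 272 and 365 CPM, and NK cells 183, 62.5, 218 and 225 CPM. Macrophages thus had the most Fos in every library and monocytes came next, while the intervals of B and T cells overlapped in P-HC24 and I-HC32.

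Dusp1, the kinase phosphatase, had the same order for myeloid cells: 1214, 1128, 1680 and 2296 CPM in macrophages and 679, 367, 1052 and 728 CPM in monocytes. B cells were lowest in every library (106, 69.1, 147 and 102 CPM). Egr1 was more strongly restricted. It was 414, 559, 812 and 1221 CPM in macrophages and between 25.0 and 137 CPM in every other class. Fosb, which forms AP-1 like Fos, ranged from 262 to 353 CPM in macrophages and from 22.9 to 210.5 CPM elsewhere.

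The Jun family differed in its distribution. Jund, the member with the most steady expression in resting cells, was highest in B cells (1307, 1727, 1769 and 1987 CPM) and between 444 and 1121 CPM in the other classes, with macrophages lowest in each library, although their interval met that of monocytes at week 24 in both libraries and that of NK cells in I-HC32. Junb was spread evenly at week 24 in P-LC24, where all classes lay between 1011 and 1211 CPM, and was highest in macrophages in the other 3 libraries (1876, 1664 and 2506 CPM). Jun was 227, 352, 522 and 952 CPM in macrophages and between 75.1 and 247 CPM in the other classes.

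Nr4a1, whose transcription follows antigen receptor signalling in lymphocytes and which non-classical monocytes need for their survival, was highest in monocytes in P-LC24 (695 CPM). Monocytes and macrophages overlapped in P-HC24 (625 and 631 CPM), and the values at week 32 were 320 and 374 CPM in monocytes and 272 and 413 CPM in macrophages. Atf3, a stress-induced repressor, was present in B cells (247, 339, 443 and 568 CPM), monocytes (364, 242, 528 and 373 CPM) and macrophages (474, 430, 502 and 737 CPM). In NK cells it was near the detection limit, with 17, 4, 18 and 2 UMIs in all.

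**Figure D1:**
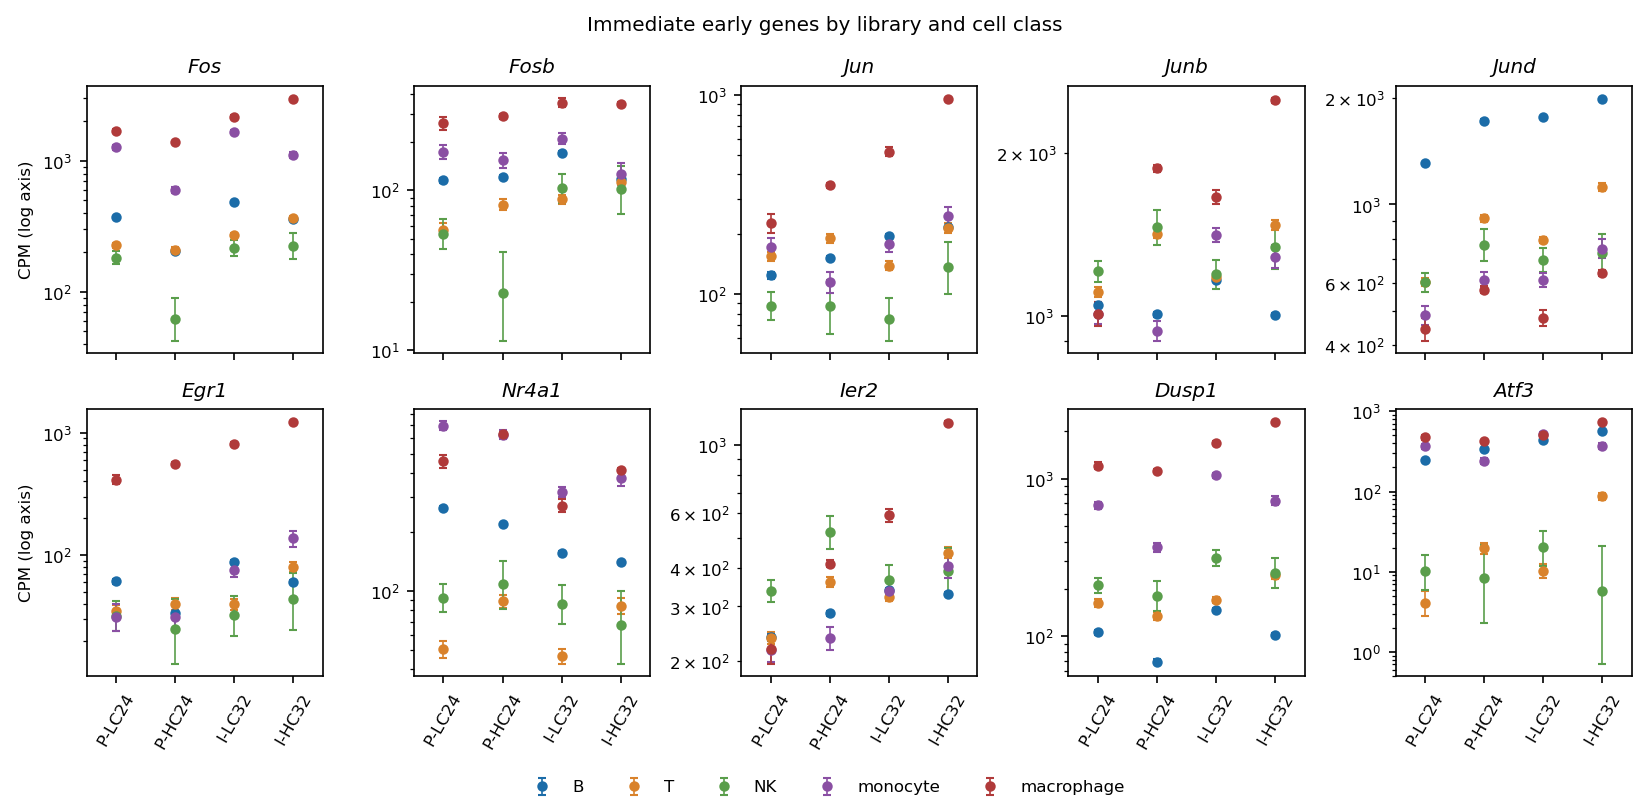
CPM of each of the 10 genes (log axis) in the 4 libraries, with 1 point per cell class and exact 95% Poisson bars that cover counting error only. Macrophages had the highest Fos, Egr1 and Dusp1 in all 4 libraries, B cells the highest Jund, and Atf3 in T cells ran from 4.05 to 86.8 CPM.

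At week 24, high dietary cholesterol was compared with low (Prog, P-HC24 over P-LC24). Of 47 pairs of member and class that had enough UMIs, 19 were at least 1.2-fold higher and 12 at least 1.2-fold lower in P-HC24. Over all compared genes and classes, 16.5% were at least 1.2-fold higher and 42.3% at least 1.2-fold lower. At a limit of 1.5-fold the balance of the members turned, with 7 higher and 9 lower. The median gene itself was lower in P-HC24, by a log2 ratio of -0.20 in B cells, -0.23 in T cells, -0.13 in NK cells, -0.12 in monocytes and -0.18 in macrophages. Relative to this median, 24 pairs were higher and 9 lower. The members did not move as a block. Fos and Dusp1 passed the limit on the lower side alone, and Jund, Ier2 and Junb on the higher side alone, although Junb was slightly lower in B cells (-0.060) and monocytes (-0.11).

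Fos was past the 1.2-fold limit in 4 of 5 classes, all lower in P-HC24. Its log2 ratio was -1.07 (-1.17 to -0.98) in monocytes, a 2.11-fold difference, and -0.86 (-0.90 to -0.82) in B cells. In NK cells it was -1.55 (-2.14 to -1.01), with 307 UMIs in the low and 30 in the high cholesterol library. It was -0.27 (-0.33 to -0.21) in macrophages, but -0.085 relative to the median gene. T cells had -0.11 (-0.21 to -0.016), which turned to 0.11 relative to the median gene and 0.067 under a stricter gate.

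Dusp1 was lower past the limit in 3 of 5 classes, with log2 ratios of -0.89 (-1.01 to -0.76) in monocytes, -0.62 (-0.70 to -0.54) in B cells and -0.28 (-0.39 to -0.16) in T cells. NK cells (-0.21) and macrophages (-0.11, but 0.078 relative to the median gene) were within it. Egr1 was lower in B cells as well (-0.86, -0.96 to -0.75), but higher in macrophages (0.43, 0.32 to 0.55). In B cells 3 of 10 members were higher and 4 lower past the limit, against 15.3% and 44.3% of genes. In monocytes 4 of 10 were lower (Fos, Dusp1, Jun at -0.59 and Atf3 at -0.59) and Jund alone was higher, against 35.7% and 18.8% of genes. The summed level of all 10 in monocytes was 5099 CPM in P-LC24 and 3925 CPM in P-HC24, a log2 ratio of -0.38 (-0.42 to -0.34).

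Jund was higher past the limit in all 5 classes, by log2 ratios from 0.33 in monocytes to 0.60 in T cells. The NK value of 0.35 changed sign to -0.068 when mean UMIs per cell were compared without scaling. Ier2 was past it in NK cells (0.63), T cells (0.60) and macrophages (0.92, 0.76 to 1.09), where 218 CPM stood against 413. Junb in macrophages was 1.86-fold higher (1876 against 1011 CPM). T cells had 6 of 9 compared members higher and 1 lower, against 12.1% of genes higher and 46.5% lower in this class, and macrophages 6 of 10 higher and 1 lower, against 17.4% and 43.1%. In T cells Nr4a1 was 1.75-fold higher (88.6 against 50.7 CPM).

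The same diet arms were compared after 8 weeks on low cholesterol (Int, I-HC32 over I-LC32). Members were at least 1.2-fold higher in 25 of 48 pairs and at least 1.2-fold lower in 10, while 16% of all compared gene and class pairs were higher and 19.4% lower. The median gene lay within 0.052 of 0 in all classes except macrophages, where it was -0.15. The higher values gathered in T cells and macrophages. All 10 members were higher past the limit in T cells, where 19.4% of genes were, and 9 of 10 in macrophages, where 12.6% were. In T cells this count was 5 of 9 after thinning to equal depth and 5 of 10 without the 5% of cells highest in the set, and in macrophages it was 6 of 10 for mean UMIs per cell without scaling.

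In macrophages the summed level of the 10 genes was 9042 CPM in I-LC32 and 13270 CPM in I-HC32, a log2 ratio of 0.55 (0.53 to 0.57). Ier2 was 1.98-fold higher (1175 against 592 CPM), Jun 1.83-fold higher (952 against 522 CPM), and the log2 ratios of Nr4a1, Junb, Egr1 and Atf3 lay between 0.56 and 0.60. Fos was at 0.46 (0.42 to 0.50) and Dusp1 at 0.45 (0.41 to 0.50). Fosb alone was within the limit (-0.031, -0.13 to 0.070).

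In T cells the sum was 3065 CPM in I-LC32 and 4231 CPM in I-HC32 (log2 ratio 0.47, 0.44 to 0.49). Atf3 was the farthest apart, at 10.3 CPM (110 UMIs) against 86.8 CPM (485 UMIs), an 8.46-fold difference. Its log2 ratio of 3.08 (2.78 to 3.39) was 3.95 after subtraction of estimated free RNA and 1.90 without the 5% of cells highest in the set. NK cells of the same I-HC32 library held 5.83 CPM (0.71 to 21.1), which rests on 2 UMIs in 53 cells. The source of the Atf3 UMIs in T cells was not tested. Egr1 was 2.03-fold higher in I-HC32 T cells (80.7 against 39.7 CPM), but its log2 ratio went from 1.02 to -0.063 without those 5% of cells, so this difference rested on them.

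In B cells and monocytes part of the set lay on the other side. In B cells Fos (-0.42), Fosb (-0.55), Egr1 (-0.56) and Dusp1 (-0.53) were lower past the limit and Atf3 was higher (0.36), against 7.34% of genes lower and 12.8% higher. None of the 10 was lower past the limit for mean UMIs per B cell without scaling. In monocytes Fos (-0.58), Fosb (-0.73), Dusp1 (-0.53) and Atf3 (-0.50) were lower, while Jun (0.47), Jund (0.29), Ier2 (0.27) and Egr1 (0.86) were higher, against 18.4% of genes lower and 20% higher. The Egr1 value turned to -0.031 under a looser gate. On the CPM scale Fos and Dusp1 were therefore below the low cholesterol arm in B cells and monocytes at both weeks, and above it in T cells and macrophages at week 32 only. Prog and Int share no library, but by the study's methods mice aspirated at week 24 went on to week 32.

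**Figure D2:**
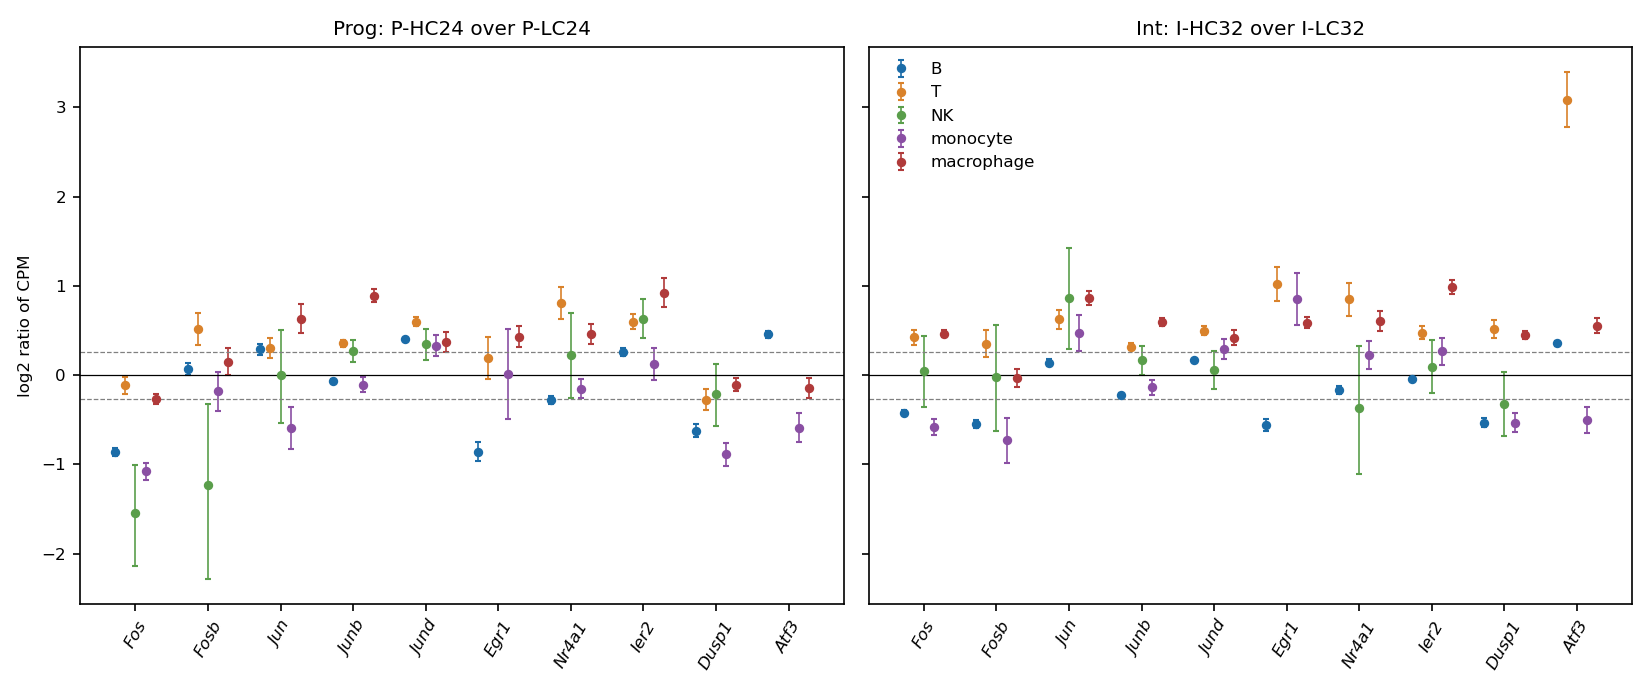
Log2 ratios of CPM for each gene (horizontal axis) and class (colour) in Prog and Int, with exact 95% intervals for counting error and dashed lines at the 1.2-fold limit. In Prog, Fos and Dusp1 lie at or below 0 and Jund above it in all classes, and in Int all 10 T cell points and 9 of 10 macrophage points lie above the upper line, Atf3 in T cells at 3.08.

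Week 32 was also compared with week 24 within each arm. These comparisons use the same 4 libraries again, so their values are given side by side and are not independent of Prog and Int. By the study's methods the mice of week 32 had already been aspirated at week 24. The paper also lists lower cell viability for both groups of week 32. Whether either difference entered the values below was not tested. On low cholesterol throughout (I-LC32 over P-LC24), 28 of 47 pairs were at least 1.2-fold higher and 3 lower, against 23.1% and 21.1% of all gene and class pairs. After cholesterol withdrawal (I-HC32 over P-HC24), 29 of 45 were higher and 5 lower, against 38.1% and 8.82%. At a limit of 2-fold, 10 pairs were higher after withdrawal, against 1.85% of all pairs, and 3 on low cholesterol, against 1.26%.

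Ier2 and Jun in macrophages were among the pairs past 2-fold in both arms. Ier2 was 2.72-fold higher on low cholesterol and 2.85-fold higher after withdrawal, and Jun 2.30-fold and 2.70-fold higher. Fos was higher past 1.2-fold in 5 of 5 classes after withdrawal, with log2 ratios from 0.80 in T cells to 1.84 in NK cells, and in 3 of 5 on low cholesterol (0.25 to 0.40 over the 5 classes). Fosb went the other way, with 5 of 5 classes higher on low cholesterol (0.27 to 0.94) and 1 of 4 after withdrawal. Egr1 in monocytes was 4.35-fold higher after withdrawal, from 31.5 CPM (70 UMIs) to 137 CPM (175 UMIs), and 2.42-fold higher on low cholesterol. The withdrawal log2 ratio of 2.12 was 0.59 under a looser gate, and that on low cholesterol (1.28) was 0.47 without the 2% deepest cells. The summed T cell ratio after withdrawal (0.29) was -0.043 relative to the median gene, which itself was 0.33 higher in I-HC32 T cells.

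Nr4a1 was the exception at week 32. In B cells it was lower than at week 24 in both arms, with log2 ratios of -0.75 on low cholesterol and -0.64 after withdrawal. Monocytes had -1.12 and -0.74, and macrophages -0.75 and -0.61. T cells (-0.12 and -0.078) were within the limit in both, but the withdrawal value was -0.41 relative to the median gene and -0.67 after thinning, past the limit. The low cholesterol value in T cells ran from -0.34 to 0.17 over the alternatives. It changed sign under a stricter gate and after thinning. All other members but Fosb and Ier2 had no class past the limit on the lower side in either arm, and those 2 had 1 each after withdrawal: Fosb in monocytes (-0.28, which turned to 0.091 with cells weighted equally) and Ier2 in NK cells (-0.42, -0.73 to -0.11).

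To see whether levels changed in all cells or in a few, each cell was thinned to 3000 UMIs and the UMIs of the 10 genes were summed. In macrophages the median cell held 20, 22, 26.5 and 40 UMIs, over 60, 510, 100 and 728 cells deep enough (4, 5, 2 and 4 were left out). The 10th percentile of cells lay at 8, 11, 12 and 24 UMIs, so the lower edge of the distribution shifted together with its middle. In monocytes the medians were 13, 10, 19 and 15 UMIs, in B cells 10, 11, 14 and 14, in T cells 7, 10, 9 and 11 and in NK cells 8, 9, 9 and 8. The 10% of cells with the most UMIs of the set held 16.0% of those UMIs in I-HC32 macrophages and between 19.1% and 26.3% in all other classes and libraries. Over single macrophages thinned to 10000 UMIs (50, 492, 92 and 699 cells), Fos and Dusp1 went together in each library, with Spearman coefficients of 0.63, 0.59, 0.52 and 0.45. Jund and Egr1 had coefficients from -0.38 to 0.061. These are the extremes of all pairs of members: the former had the highest minimum over libraries and the latter the lowest coefficient. Fos and Junb, for example, ran from 0.090 to 0.60. These are descriptions of cells that share a library.

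**Figure D3:**
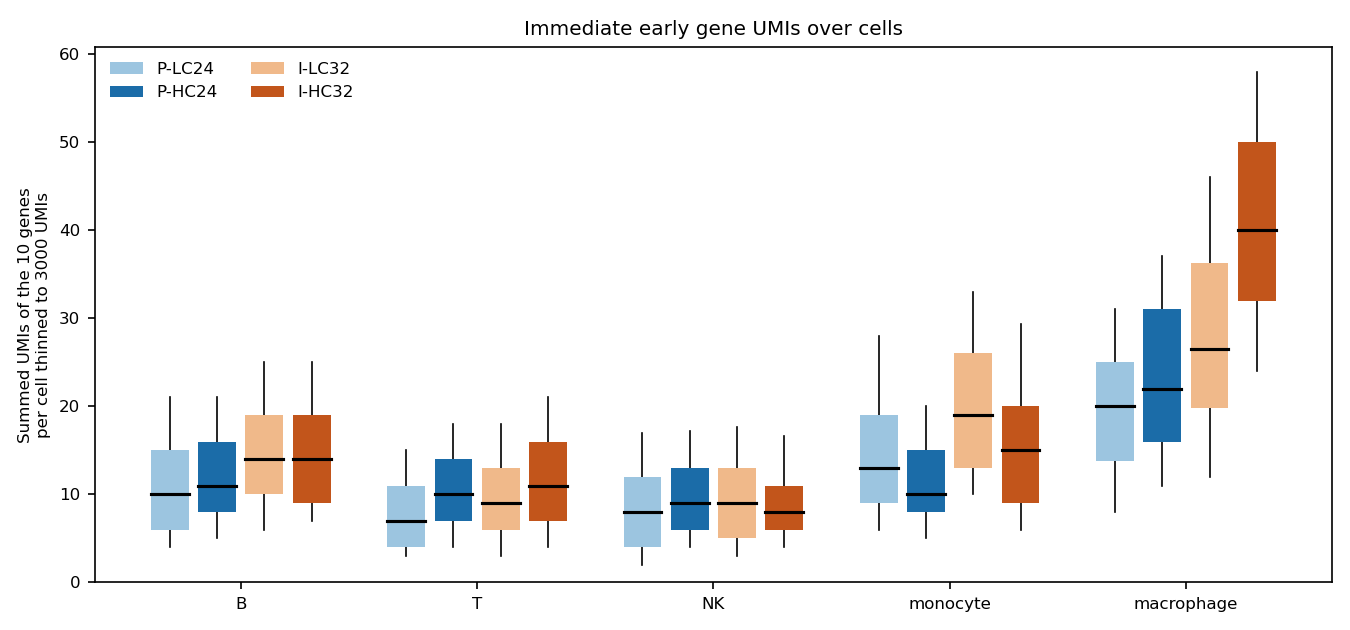
UMIs of the 10 genes summed per cell after thinning each cell to 3000 UMIs, by class and library. Boxes span the middle 50% of cells, thick lines are medians and thin lines run from the 10th to the 90th percentile, and the macrophage median was 20, 22, 26.5 and 40 UMIs in the order of the legend.

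Because classes can hold different mixtures of cells, the genes were also read in subsets gated on further markers. Atf3 separated the B cell subsets. In B cells with at least 2 UMIs of B-1 markers (Zbtb32, Bhlhe41, Cd9 and Cd5) and none of Fcer2a it was 672, 540, 691 and 729 CPM, and in B cells with Fcer2a and Ighd, follicular markers, and none of the former 21.5, 48.6, 57.6 and 93.1 CPM. The B-1 marker cells made up 14.1%, 27.7%, 29.7% and 39.3% of B cells. These gates use raw UMIs, and the median B cell held 5892.5, 6874.5, 7013 and 9066 UMIs. The part of depth in these shares was not tested. The higher Atf3 of all B cells in P-HC24 (log2 ratio 0.46) was not seen in B-1 marker cells, where it was -0.32 (-0.37 to -0.27), but was seen in follicular marker cells (1.18, 0.92 to 1.44). Fos was lower in P-HC24 in both, at -1.02 and -0.56.

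Nr4a1 separated the monocytes. In those with Ace or Treml4, markers of the non-classical type, it was 1141, 1306, 925 and 884 CPM, and in Ccr2 monocytes 428, 441, 244 and 239 CPM. Within each subset the Prog ratios (0.19 and 0.045) and Int ratios (-0.065 and -0.028) were small. The lower Nr4a1 of all monocytes at week 32 was present in both subsets, and these held only 28 to 65 and 34 to 120 cells. Fos was lower in P-HC24 in both, at -1.66 (-1.96 to -1.37) with Ace or Treml4 and -1.16 (-1.30 to -1.02) with Ccr2.

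Atf3 in T cells of I-HC32 was 101 CPM in Cd4 cells, 28.5 CPM in Cd8 cells and 138 CPM in T cells without a UMI of either, against 11.4, 7.42 and 17.5 CPM in I-LC32. Egr1 was higher in Int in Cd4 cells (1.06) and in cells without either (1.64, 1.30 to 1.99), but not in Cd8 cells (-0.36, -0.78 to 0.048). The summed level of the set in I-HC32 was 4593 CPM in Cd4, 3028 CPM in Cd8 and 5370 CPM in the remaining T cells. Cd8 cells numbered 762 of I-LC32 and 282 of I-HC32 T cells, and within them the summed ratio was 0.24 instead of 0.47.

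Macrophages were also divided by a Gata6 UMI. Their summed levels were 6447, 7740, 9750 and 13656 CPM with Gata6 and 6287, 7413, 7278 and 11724 CPM without. In Int the log2 ratio was 0.49 (0.46 to 0.51) and 0.69 (0.65 to 0.73). On low cholesterol, week 32 over week 24 gave 0.60 (0.56 to 0.64) with Gata6 but 0.21 (0.14 to 0.28), within the limit, without. The low cholesterol libraries held 34 and 63 macrophages with Gata6 and 30 and 39 without, each from at most 3 mice.

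**Figure D4:**
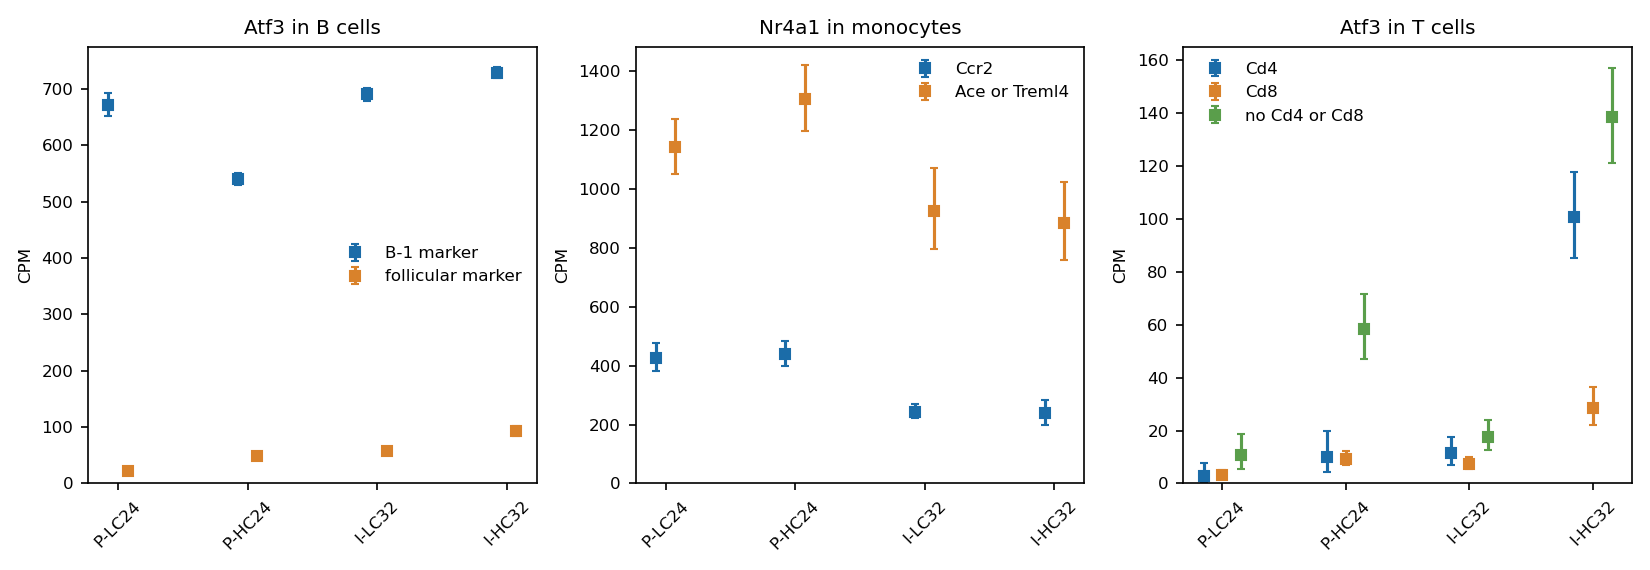
CPM of Atf3 in B cell subsets, Nr4a1 in monocyte subsets and Atf3 in T cell subsets by library, with exact 95% Poisson bars for counting error. Atf3 was at least 540 CPM in B-1 marker cells and at most 93.1 CPM in follicular marker cells, and Nr4a1 was higher in monocytes with Ace or Treml4 than in Ccr2 monocytes in all 4 libraries.

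A list of 50 other early response genes was read in the same way. In T cells 13 of 37 compared genes were higher and 5 lower in Prog (median log2 ratio 0.065, all genes -0.23), against 12.1% and 46.5% of all genes. In Int 26 of 38 were higher and 4 lower (0.36, all genes 0.052), against 19.4% and 9.47%. In macrophages 21 of 46 were higher and 8 lower in Prog (0.22, all genes -0.18), against 17.4% and 43.1%, and 24 of 47 were higher and 8 lower in Int (0.29, all genes -0.15), against 12.6% and 37.2%. B cells had medians of -0.075 in Prog (all genes -0.20) and -0.039 in Int (all genes 0.038). Monocytes had -0.10 in Prog (all genes -0.12) and 0.029 in Int (all genes 0.0088). Cxcl2, a neutrophil chemokine and the most abundant of the list in macrophages, was 3104, 3142, 2741 and 3501 CPM there. Socs3, the inhibitor of cytokine receptor signalling, had the highest Prog ratio of the list in B (1.10), T (0.91) and NK cells (1.28). Dusp2, a phosphatase related to Dusp1, had the lowest Int ratio in B cells (-0.72), T cells (-0.63) and macrophages (-1.64).

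Kinases and promoter factors that act upstream of the set were mostly lower in Prog. Of 126 compared pairs of 32 such genes with the classes, 4 were higher and 79 lower in P-HC24, against 16.5% and 42.3% of all pairs, and in macrophages the median log2 ratio was -0.43 (all genes -0.18). Elk3, a ternary complex factor, was lowest in T cells (-1.05) and macrophages (-1.16), and Crebbp, the CRE coactivator, was at -0.65 in T cells. In Int 15 of 124 were higher and 26 lower, against 16% and 19.4% of all pairs. Crem, which encodes CRE activators and repressors, was the highest in T cells (0.74, 0.60 to 0.87).

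Of 18 AP-1 partners and rivals, 11 of 57 compared pairs were higher and 32 lower in Prog, and 12 of 58 were higher and 13 lower in Int, with the same shares of all pairs beside them, so the Int counts lay near the background. Maf, a leucine zipper factor, had the lowest Prog ratio in T cells (-1.46) and macrophages (-1.48). Heat shock chaperones, which respond to protein stress, were higher in 5 and lower in 15 of 47 pairs in Prog (all pairs 16.5% and 42.3%) and higher in 33 and lower in 1 of 47 in Int (all pairs 16% and 19.4%). In Int their median was 0.80 in B cells, 0.25 in T cells, 0.42 in NK cells, 0.55 in monocytes and 0.42 in macrophages. Hspa8, their most abundant gene in macrophages, was 1572 CPM in I-LC32 and 2064 CPM in I-HC32. The chaperones were thus higher in I-HC32 B cells and monocytes, where Fos and Dusp1 were lower. Atf3 in those B cells and Jun, Jund, Ier2 and Egr1 in those monocytes were higher past the limit, like the chaperones. In T cells and macrophages the chaperone median and most members were both higher in I-HC32. A link between the chaperones and the members was not tested.

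The 5 genes whose levels followed the summed set most closely over the 20 class and library sums, each centred within its class, were Klf2 (Pearson r 0.89), Btg2 (0.89), Tsc22d3 (0.81), Trappc3 (0.81) and Tnfaip8l2 (0.78), out of 4672 genes with at least 100 UMIs in every class. The 20 points share 4 libraries and the 2 closest genes were on the list of other early response genes. Klf2, a zinc finger factor of quiescent lymphocytes, was 1418, 1676, 2232 and 3118 CPM in macrophages. Among the members the coefficient was highest for Ier2 (0.89) and lowest for Nr4a1 (-0.26). The sum contains each member, so these values cannot be set against those of the other genes.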

How the data were processed

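For each condition 1 library was made, and the raw UMI counts that the authors deposited for every gene and barcode came from Cell Ranger 9.0.1 on GRCm39 (submitters' notes and methods, which also name Seurat 5.3). The files held whole numbers, 50941106 to 89257239 UMIs over 7035 to 9828 barcodes per library, with no filter on cells beyond cell calling. Following the study's limits, genes seen in under 3 cells were removed, as were cells below 500 UMIs, below 300 genes or above 10% mitochondrial UMIs. Cells were gated on at least 3 UMIs (6 for myeloid cells) over at least 2 markers and at least 5 times the UMIs of other classes' markers. This gate limits mixed cells but does not exclude all of them, and no doublet caller was run. Macrophages needed 6 UMIs over at least 3 of Adgre1, C1qa, C1qb, C1qc, Vsig4 and Timd4. UMIs were summed per class and library and scaled to CPM. A gene was compared where at least 10% of cells had a UMI in either library and both held at least 100 UMIs together, and called past 1.2-fold, the fold used in the study. Intervals are exact Poisson for levels and exact conditional for ratios. With 1 library per condition no test was made.

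The text names all 10 members, the 5 genes most like their sum and, of each other list, the gene with the highest mean CPM and those with the highest and lowest ratio. The members and lists were chosen with earlier results of these data known, and the subset gates after the values of the classes had been seen. On simulated counts for Prog in B cells (11363 genes), 95.6% of intervals covered the true ratio, 100% of 2-fold changes were recovered and 5.67% of unchanged genes passed 1.2-fold. These counts were drawn with counting error alone and without the filter on the share of cells. The result therefore says nothing on variation between mice or libraries. B cells had the most UMIs of all classes, so it does not carry over to the smaller classes. Jun, Junb, Jund, Nr4a1, Dusp1 and Atf3 have annotated antisense partners, and Nr4a1 and Dusp1 overlap genes on their own strand. Motifs were searched in promoters of GENCODE protein-coding genes. Computations used pandas 2.3.3, scipy 1.17.1 and numpy 2.4.6 in Python 3.11.15, and plots matplotlib 3.10.9. The 15 alternatives concern the mitochondrial limit, gate, denominator, scaling, weight of cells, thinning, free RNA, the filter on low counts, the fold and the left-out cells.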

Additional observations from a re-analysis of the deposited data

Results flagged for a closer look

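For 3 pairs of gene and class, the high cholesterol arm was past 1.2-fold on opposite sides of the low cholesterol arm at the 2 weeks. Dusp1 in T cells had a log2 ratio of -0.28 in Prog and 0.52 in Int. Jun in monocytes had -0.59 in Prog and 0.47 in Int, and Fos in macrophages -0.27 and 0.46. Each difference between Prog and Int rests on 1 library per condition and was not tested. Relative to the median gene, the Prog values of Dusp1 in T cells and Fos in macrophages were -0.047 and -0.085.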

How the results depend on the processing

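No paired analysis was possible because each condition has 1 library. Of the counts of member and class pairs past the limit, 102 stayed within 1.5 times their value over the 15 alternatives and 18 did not. The summed ratios were less stable: 150 were graded as the same, 124 as moved and 2 as reversed. At a fold of 1.5, 7 pairs were higher and 9 lower in Prog, and 11 higher and 1 lower in Int. At the same fold, 12 were higher and 3 lower on low cholesterol, and 20 higher and 3 lower after withdrawal. At a fold of 2, 0 were higher and 3 lower in Prog, 2 higher and 0 lower in Int, 3 higher and 1 lower on low cholesterol, and 10 higher and 0 lower after withdrawal. A strict gate gave 5 lower pairs on low cholesterol and 8 after withdrawal (23 higher). Mean UMIs per cell without scaling gave 5 lower pairs in Int (22 higher), 6 on low cholesterol and 3 after withdrawal. Thinning gave 17 higher and 11 lower pairs in Int. The summed T cell ratio after withdrawal changed sign relative to the median gene (-0.043) and in Cd8 cells alone (-0.011). The Cd8 alternative was chosen after seeing the data, and the cause was not tested. Other summed ratios changed sign as well, so the grade of reversed does not count every such change. In Prog the NK sum was higher as CPM (log2 ratio 0.20) but lower per cell. It held 4730 UMIs over 244 cells in P-LC24 and 1556 over 93 in P-HC24. In Int the B cell sum was lower as CPM (-0.023) but higher per cell. After withdrawal the NK sum (0.024) lay below the median gene (0.069). Nr4a1 in B cells in Prog turned to 0.032 and Junb in NK cells to -0.15 without scaling. Estimated free RNA was 1.53% to 12.5% of a class's UMIs. Depth limited NK cells most, with 53 cells in I-HC32 and 5 compared members after withdrawal.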

Other observations

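Barcodes left out of the classes also held UMIs of the 10 genes. In barcodes with over 10% mitochondrial UMIs (154, 369, 273 and 849, in the order of libraries used above), the summed level was 1421, 3380, 2879 and 3839 CPM. In kept cells of no class (496, 592, 602 and 856), which include dendritic cells, neutrophils and mixed cells, it was 5603, 5741, 4738 and 4893 CPM.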
